A study of Mus musculus with 12 samples.

Results

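The genes described here are 42 genes of the actin cytoskeleton, the machinery that neutrophils use to crawl, spread and engulf particles. They were chosen by name for their known function, at a time when earlier results of these data were known, and all 42 were found among the 11494 genes of the deposited table. RNA was measured by sequencing in 12 libraries of mouse blood neutrophils. LOY BMT holds 6 libraries (LOY 4, 5, 9, 10, 15 and 19) and carries the genotype label LOY, which stands for loss of Y, here in the transplanted marrow. Control BMT holds 6 libraries (Control 1, 2, 6, 12, 17 and 18) with the genotype label Control. Both groups carry the treatment label Control, and both consist of cells from blood after a bone marrow transplant. For every library 10000 Ly6G+CD115-RFP+ cells were sorted after red cell lysis, so each value is a sum over cells of that gate that carry RFP, a red fluorescent protein. The titles tag the LOY libraries KO and the Control libraries C, without explaining the tags. The labels used here give no age or strain, do not explain how the Y chromosome was lost, and do not name the mouse behind each library. The p-values below therefore measure only the spread between these libraries, which may be technical.

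Actin exists as single molecules and as filaments. Profilin and the thymosins hold the single molecules, formins and the Arp2/3 complex start new filaments, capping proteins stop their growth, and cofilin and its partners take them apart. Small GTPases, which act as switches, decide where this happens: in neutrophils the Rac branch with the exchange factors Dock2 and Vav1 drives the leading edge, and the RhoA branch with non-muscle myosin II drives contraction at the rear. Talin, kindlin-3 and vinculin tie filaments to integrins, and moesin and ezrin tie them to the plasma membrane.

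The deposited values, called normalized reads here, are read counts divided by a size factor for each library, and the reads behind them could be recovered. Recovered reads ranged from 17097739 to 19616066 in LOY libraries and from 13743581 to 18459792 in Control libraries. Genes listed at 0 made up 6.60% to 11.6% of the table in LOY libraries, 20.5%, 21.7% and 17.3% in Control 1, 2 and 12, and 9.33% to 11.1% in Control 6, 17 and 18. Because Control 1, 2 and 12 stand apart in this way, estimates are given with and without them. Reads of 4 Y-linked genes summed to between 0.162 and 86.3 per 1000000 normalized reads in LOY libraries and between 155 and 254 in Control libraries. The highest LOY library was LOY 4, at 39.8% of the Control mean, and LOY 5 came next at 3.10%. The neutrophil label fitted the marker genes: all 14 listed neutrophil markers were in the table, and the most abundant, S100a8, held 500885 to 805997 normalized reads in LOY libraries and 497213 to 1081100 in Control libraries. Neutrophil markers summed to 88156 to 119634 per 1000000 normalized reads in LOY libraries and 85765 to 137380 in Control libraries, and 10 of the 14 had the lower mean in LOY. Their part in the values of the actin genes was not tested.

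Several of these genes have near-identical relatives, so the sequences matter for what a read count means. The coding regions of the 2 actins, Actb (beta-actin) and Actg1 (gamma-actin), have the same bases at 997 of 1125 positions (88.6%) in the GENCODE vM21 transcripts of build GRCm38. Those of the myosin regulatory light chains Myl12b and Myl12a match at 498 of 516 positions (96.5%). The first 90 coding bases of each are shown, 5′ to 3′ on the coding strand. They show where the bases that tell a pair apart lie in this stretch, which need not hold for the rest of the coding region. Capitals mark the bases that differ within a pair, 16 for the actins (Actb on chromosome 5, Actg1 on chromosome 11) and 4 for the light chains (both on chromosome 17).
Actb: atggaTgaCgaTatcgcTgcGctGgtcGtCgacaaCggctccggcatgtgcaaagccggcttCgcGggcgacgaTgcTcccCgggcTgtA
Actg1: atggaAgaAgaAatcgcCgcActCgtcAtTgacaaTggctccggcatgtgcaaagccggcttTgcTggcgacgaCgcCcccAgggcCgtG
Myl12b: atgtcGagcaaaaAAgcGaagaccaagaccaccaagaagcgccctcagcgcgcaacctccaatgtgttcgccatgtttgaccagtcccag
Myl12a: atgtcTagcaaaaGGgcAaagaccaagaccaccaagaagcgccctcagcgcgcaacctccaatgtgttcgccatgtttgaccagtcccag

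Of all 50-base windows along the longest-coding transcript, 21 of the 42 genes shared none with any other annotated gene, and 29 shared under 5%. Vcl, Msn, Iqgap1 and Capg, the genes with the smallest p-values below, shared none. Windows were compared in the direction of the transcripts only. The libraries do not mark strand, so reads from genes that overlap on the opposite strand are not covered by this search. The share was 73.8% for Capza1 (mostly with the pseudogene Gm3608), 56.7% for Actg1 (mostly with Gm12715) and 49.8% for Actr3 (mostly with Gm8822). These pseudogenes had reads of their own in the table. Gm12715 averaged 1727 ± 195 normalized reads in LOY libraries and 1975 ± 299.5 in Control libraries (SD, n = 6 each), which equals 4.00% of the Actg1 mean in both. Gm3608 equalled 7.25% of the Capza1 mean in LOY libraries and 7.60% in Control libraries. Part of the reads of Capza1, Actg1, Actr3, Myl6, Myl12a, Myl12b, Arpc1b, Tmsb10 and Cfl1 may thus sit with a relative, and their values are uncertain to that extent. The same holds for Actb, Rhoa and Lcp1, which shared 14.2%, 12.3% and 7.46% of their windows. Arpc4 shared 10.5% of its windows with Ttll3. Ttll3 averaged 282 ± 88.1 normalized reads in LOY libraries and 688 ± 359 in Control libraries (SD, n = 6 each). This equals 3.96% of the Arpc4 mean in LOY libraries and 9.49% in Control libraries, and its part in the Arpc4 values was not tested.

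Serum response factor, which binds the CArG box, is known to regulate many actin genes through cofactors that sense the pool of single actin molecules. In the RefSeq promoter table (build GRCm38.p6, 250 bases before to 50 after each gene start), 41 of the 42 genes were matched by symbol. The entry not matched was Actb. A CArG box lay in the window of 4 of these 41 genes (9.76%), against 488 of all 27025 genes of that table (1.81%). The box reads the same as a pattern on both strands, so each was counted once. Each match is shown with bases around it, 5′ to 3′ on the strand of the gene, with the box in capitals. All bases shown lie upstream of the RefSeq start of that window. For Myl6 they lie inside the gene as placed by GENCODE vM21 (128490860 to 128494145). These matches are shown because Vcl, with the highest fold change of the 42 genes, and Actg1, with one of the 5 lowest, hold the same motif.
Vcl, chr14:20929148-20929207, plus strand: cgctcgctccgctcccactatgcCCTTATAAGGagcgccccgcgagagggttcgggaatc
Actg1, chr11:120348551-120348610, minus strand: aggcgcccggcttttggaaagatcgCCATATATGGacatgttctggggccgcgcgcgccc
Myl6, chr10:128493025-128493084, minus strand: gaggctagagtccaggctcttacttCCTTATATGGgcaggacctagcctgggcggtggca
Arpc4, chr6:113377863-113377922, plus strand: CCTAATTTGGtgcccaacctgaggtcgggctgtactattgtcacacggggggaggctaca

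No difference between LOY and Control neutrophils passed the adjusted test for any of the 42 genes. With limma on log2(normalized reads + 1), 0 of 42 passed an adjusted p of 0.05 (Benjamini-Hochberg over 9742 tested genes), and over all tested genes 2 passed (0.0205%). On recovered read counts edgeR called 0 of the 42, and 0 of 9742 genes in all (0%). DESeq2 also called 0 of the 42, where it called 54 of 11148 genes in all (0.484%). At an unadjusted limma p under 0.05, 3 of the 42 were higher in LOY (Vcl, Msn and Iqgap1), where 4.4% of all tested genes were. In the other direction 1 of the 42 was lower in LOY (Capg), where 1.63% of all tested genes were. With edgeR 3 of the 42 were higher and 1 lower at that threshold, where 1.45% of all tested genes were higher and 1.5% lower. DESeq2 also placed 3 higher and 1 lower, where 3.15% of all tested genes were higher and 2.4% lower. No gene of the 42 had LOY and Control values that did not overlap, against 0.287% of all tested genes.

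**Figure D1:**
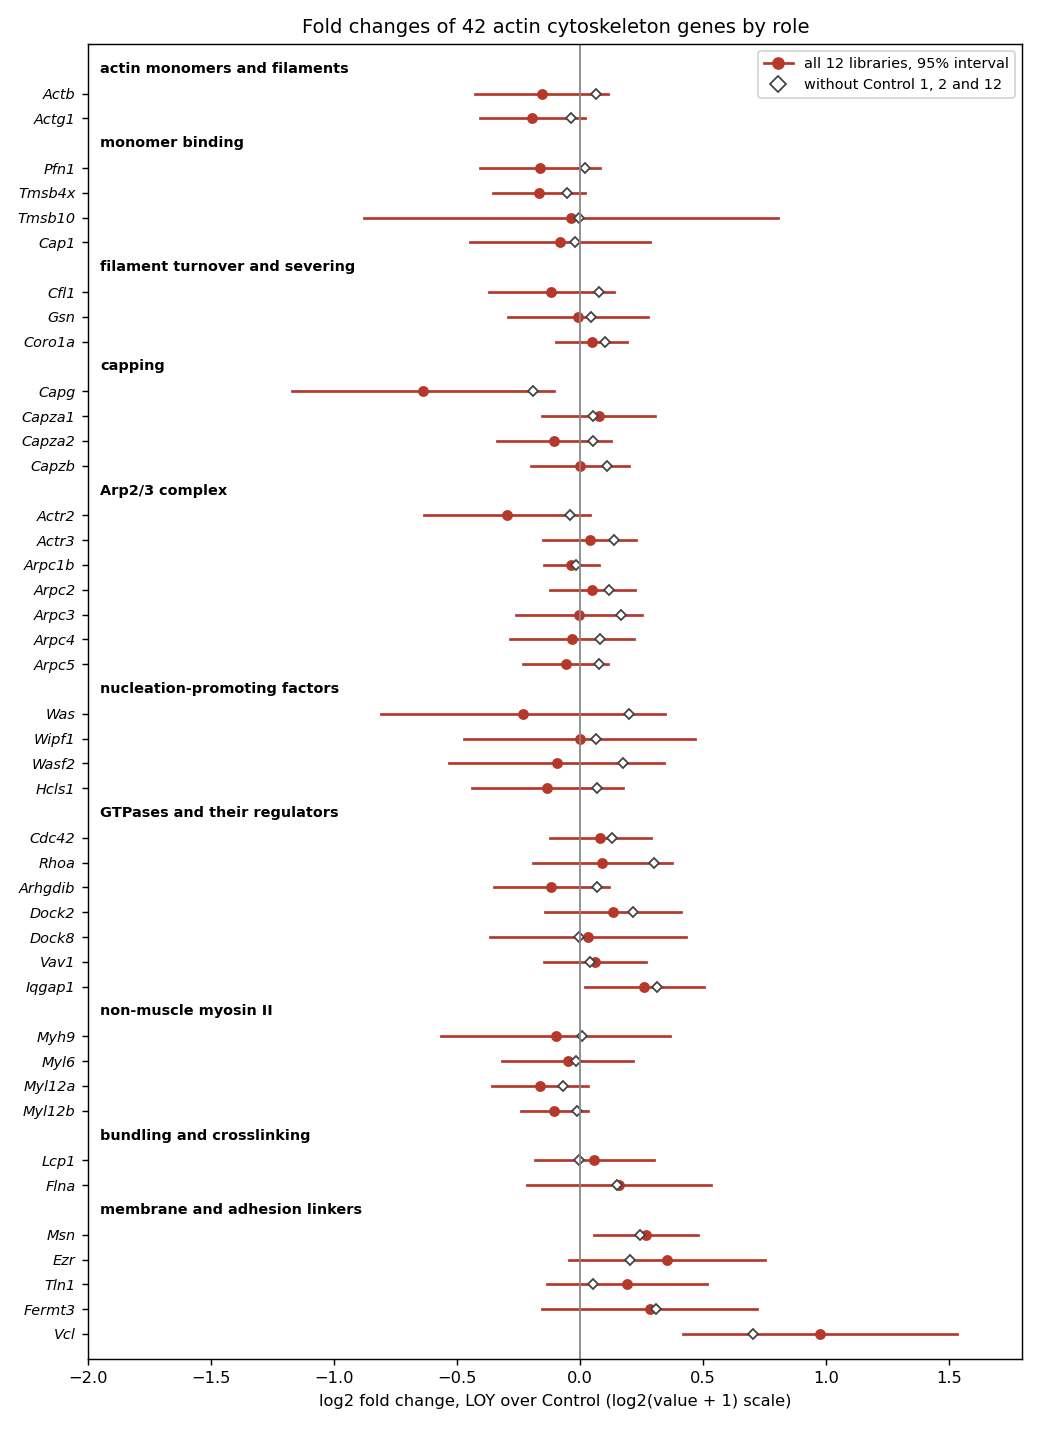
Log2 fold changes of the 42 genes, LOY over Control, grouped by role. Filled circles with lines give the limma estimate and its 95% interval from all 12 libraries, and open diamonds give the estimate without Control 1, 2 and 12. The 4 intervals that leave out 0 belong to Vcl, Msn, Iqgap1 and Capg, and the 5 genes of the lowest block all lie right of 0.

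The point estimates split into 17 above 0 and 25 below 0, with a median log2 fold change of -0.02. The median over all tested genes was 0.14, and over tested genes with a mean of 500 or more normalized reads it was 0.0015. With edgeR the median was -0.01 both over the 42 genes and over all tested genes. Without Control 1, 2 and 12 the split became 30 above and 12 below 0 with a median of 0.07, against -0.01 over all tested genes, so the side on which most of these genes fall depends on those 3 libraries. In that fit 5 of the 42 (Vcl, Rhoa, Iqgap1, Msn and Fermt3) had an unadjusted p under 0.05 and were higher in LOY, where 3.1% of all tested genes were. In the lower direction there were 0 of the 42, where 1.72% of all tested genes were, and 0 passed the adjusted threshold. For most of the genes the intervals bound the size of a difference between these libraries closely. Like the p-values, they measure only the spread between these libraries, which may be technical. For 40 of the 42 (95.2%) the 95% interval of the fold change lay within 2-fold in either direction, against 30.7% of all tested genes and 96.3% of the 542 tested genes with a mean of 5000 or more. For 35 of the 42 it lay within 1.5-fold. Fewer transcripts per cell and fewer cells that carry them cannot be told apart in such bulk samples.

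**Figure D2:**
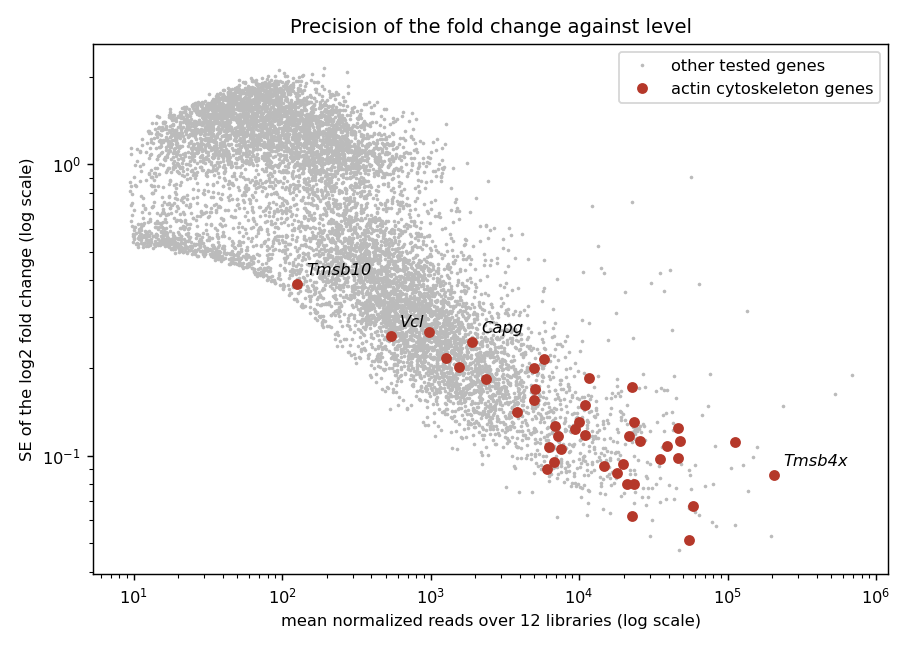
Standard error (SE) of the log2 fold change against mean normalized reads over the 12 libraries, both on log scales, for all tested genes (grey) and the 42 actin genes (red). The 42 genes had a median SE of 0.118, against 0.560 over all tested genes. Tmsb10, the lowest in level, had the largest SE among them, 0.389.

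The linkers between filaments and membrane held the 4 highest fold changes of the 42 genes, those of Vcl, Ezr, Fermt3 and Msn. Vcl encodes vinculin, which reinforces the link between integrins and actin, and it lies on chromosome 14 (20929398 to 21033676, plus strand, GRCm38). It had 484, 701 and 896 normalized reads (lowest, median, highest) in LOY libraries, against 211, 366 and 574 in Control libraries. LOY 4 was the highest and Control 2 the lowest. The groups overlapped only through LOY 5, whose 484 normalized reads lay below the 574 of Control 17, so that 5 of 6 LOY libraries stood above every Control library. Vcl averaged 706 ± 141 normalized reads in LOY libraries and 369.8 ± 127 in Control libraries (SD, n = 6 each). The log2 fold change was 0.98 ± 0.26 (SE, 95% interval 0.42 to 1.53), with a limma unadjusted p of 0.0023 and an adjusted p of 0.526. It was 0.71 without Control 1, 2 and 12 (limma adjusted p = 0.937) and 0.90 without LOY 4, the library with the most Y-linked reads. In the authors' deposited table the log2 fold change of Vcl was 0.93 with an adjusted p of 0.123. Vcl is also the second lowest of the 42 genes in level, with a mean of 538 normalized reads and rank 3414 of the table.

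Msn encodes moesin, the main protein of its family in white blood cells. Msn had 34174, 38504 and 40652 normalized reads (lowest, median, highest) in LOY libraries, against 24937, 32389 and 37486 in Control libraries. The 4 LOY libraries 4, 5, 9 and 10 lay above every Control library, and LOY 15 and 19 lay within the Control range. The log2 fold change was 0.27 ± 0.10 (SE, 95% interval 0.06 to 0.48, limma adjusted p = 0.762), and it was 0.24 without Control 1, 2 and 12. Its relative Ezr, which encodes ezrin, had 9995, 13238 and 15925 normalized reads in LOY libraries, against 5620.0, 10819.6 and 12583 in Control libraries. Again 4 LOY libraries (5, 9, 10 and 15) lay above every Control library, and the lowest library of all, Control 2, stood far below the others. The log2 fold change was 0.35 ± 0.18 (SE, 95% interval -0.05 to 0.75, limma adjusted p = 0.81), and it was 0.20 without Control 1, 2 and 12.

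The integrin activators had intervals that took in 0 with all 12 libraries. Tln1 encodes talin, which opens integrins from inside the cell, and it averaged 11562 ± 1233 normalized reads in LOY libraries and 10319.5 ± 2435 in Control libraries (SD, n = 6 each). Its log2 fold change was 0.19 (95% interval -0.13 to 0.52), and 0.05 without Control 1, 2 and 12. Fermt3, which encodes kindlin-3, the partner of talin in blood cells, averaged 5379.5 ± 653 normalized reads in LOY libraries and 4622 ± 1689 in Control libraries (SD, n = 6 each), a log2 fold change of 0.28 (95% interval -0.15 to 0.72). It was 0.31 without Control 1, 2 and 12, with a limma unadjusted p of 0.040 and an adjusted p of 0.937. All 5 linker genes thus had positive estimates, with a median log2 fold change of 0.28, and 0 of 5 passed the adjusted threshold. Summed, the 5 linkers made up 3954 to 4551 per 1000000 normalized reads in LOY libraries and 2363 to 3896 in Control libraries, so these ranges did not overlap. The sums weigh Msn most, with means of 38175 normalized reads in LOY libraries and 31963 in Control libraries. They weigh Vcl least, with means of 706 in LOY libraries and 369.8 in Control libraries. The gap between the lowest LOY library and the highest Control library was small beside the Control SD of 593. The means were 4228 ± 250 in LOY libraries and 3471 ± 593 in Control libraries (SD, n = 6 each), and their difference of 758 became 499 without Control 1, 2 and 12. Of the 10 roles this was the one whose summed level did not overlap on this scale. Without the division by library totals, the linker sums of the groups overlapped. The roles were drawn up with earlier results of these data known, so no test was made on the sums.

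**Figure D3:**
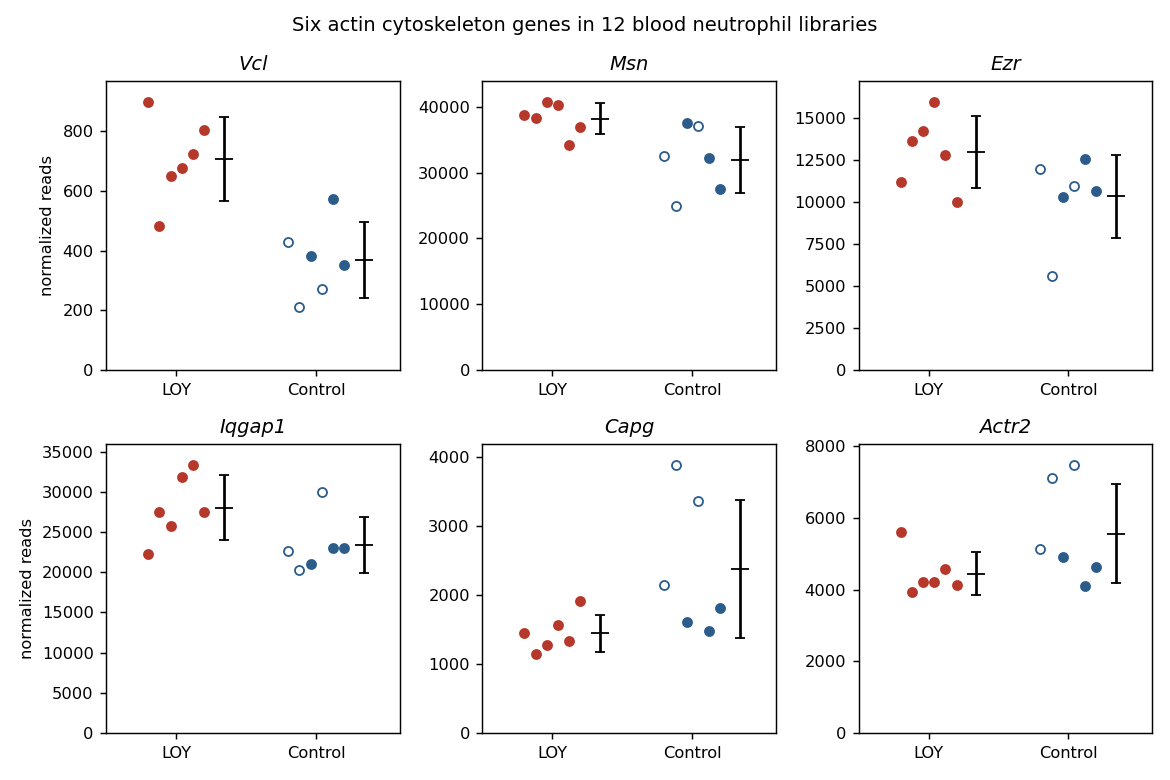
Normalized reads of 6 genes in each library, LOY on the left and Control on the right. Each point is a library, open points are Control 1, 2 and 12, and the bar beside each group is the mean ± SD (n = 6). Vcl, Msn, Ezr and Iqgap1 sit higher in LOY with overlap, and the high Control values of Capg and Actr2 are open points.

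Platelets and monocytes express many of the linker genes, so their markers are given beside these sums. Platelet markers (13 of 15 in the table, Gp1bb and Gp5 not listed) summed to 56.9 to 137 per 1000000 normalized reads in LOY libraries and 83.2 to 142 in Control libraries, and 8 of the 13 had the higher mean in LOY. Monocyte and macrophage markers (7 of 11 analysed here, without Ccr2, Cx3cr1 and Fn1, among others) summed to 1114 to 1541 in LOY libraries and 869 to 1618 in Control libraries, and 4 of the 7 had the higher mean in LOY. The most abundant of them, Csf1r, held 9734 to 15221 normalized reads in LOY libraries and 5850 to 11687 in Control libraries. Their part in the linker values was not tested. Erythroid markers (8 of 11 in the table, with Ahsp, Epb42 and Klf1 not listed, led by Hba-a1) summed to 5906 to 38020 per 1000000 in LOY libraries and 4283 to 8890 in Control libraries, and all 8 had the higher mean in LOY. LOY 15 was the library at 38020, and it was also the lowest of the 12 for 6 of the 42 actin genes. Control 2 was the lowest for 11 of them and Control 18 for 6, at erythroid sums of 6702 and 8890. The part of erythroid RNA in these values was not tested. Lymphocyte markers (10 of 15 in the table) summed to 126 to 543 in LOY libraries and 253 to 466 in Control libraries, led by Ighm at 1757 to 5975 normalized reads in LOY libraries and 3243 to 5839 in Control libraries. Eosinophil and basophil markers (5 of 10 in the table) summed to 2.91 to 16.3 in LOY libraries and 0.061 to 20.9 in Control libraries, led by Ccr3, and 4 of the 5 were at 0 in at least 1 library.

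Among the switch proteins and their regulators 6 of 7 estimates lay above 0 and none passed the adjusted threshold. Iqgap1, a scaffold that gathers active Cdc42 and Rac with filaments, had 22253, 27493 and 33336 normalized reads (lowest, median, highest) in LOY libraries, against 20296, 22838 and 30056 in Control libraries. Control 12 was the Control library at the top of that range, and 2 LOY libraries (10 and 15) lay above it. The other 5 Control libraries lay between 20296 and 23047, and 5 of 6 LOY libraries lay above these. Its log2 fold change was 0.26 ± 0.11 (SE, 95% interval 0.02 to 0.51, limma adjusted p = 0.81), and 0.31 without Control 1, 2 and 12.

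Neither GTPase passed the threshold. Cdc42, which steers direction, averaged 20207 ± 2259.7 normalized reads in LOY libraries and 19076 ± 2211 in Control libraries (SD, n = 6 each), with a 95% interval of the log2 fold change from -0.12 to 0.29. Its log2 fold change was 0.08 with all libraries and 0.13 without Control 1, 2 and 12. Rhoa, which drives contraction, averaged 10271 ± 1174 in LOY libraries and 9749 ± 1987 in Control libraries (SD, n = 6 each). Rhoa had a log2 fold change of 0.09 with all libraries and 0.30 without those 3 (limma unadjusted p = 0.025, adjusted p = 0.937). The exchange factors Dock2, Vav1 and Dock8, which load Rac or Cdc42 with GTP, had log2 fold changes of 0.13, 0.06 and 0.03, and without Control 1, 2 and 12 Dock2 stood at 0.21 and Vav1 at 0.04. Arhgdib, which encodes the inhibitor that keeps these GTPases off the membrane, was the one estimate below 0 in this group, at -0.12 (95% interval -0.35 to 0.12). It was 0.07 without Control 1, 2 and 12, where Dock8 stood at -0.0032.

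The actins and the proteins that hold single actin molecules had estimates below 0 in 6 of 6 genes. Actb had 40104, 42121 and 52900.2 normalized reads (lowest, median, highest) in LOY libraries, against 38913, 46114 and 67511 in Control libraries, and all LOY values lay within the Control range. Actg1 had 35859, 43977 and 48759 normalized reads in LOY libraries, against 42453, 48229 and 59121 in Control libraries, and 2 LOY libraries lay below every Control library. The log2 fold changes were -0.15 ± 0.12 for Actb and -0.19 ± 0.10 for Actg1 (SE, limma adjusted p = 0.849 for Actb and 0.81 for Actg1). Without Control 1, 2 and 12 they were 0.07 for Actb and -0.03 for Actg1. The 2 actins had nearly equal normalized reads: the ratio of Actb to Actg1 was 1.02 ± 0.083 in LOY libraries and 0.994 ± 0.132 in Control libraries (SD, n = 6 each). Actg1 shared 56.7% of its 50-base windows with other genes and Actb 14.2%, so this ratio may not give the amounts of RNA.

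Tmsb4x, which encodes thymosin beta-4, the main store of single actin molecules in blood cells, was the highest of the 42 genes and ranked 4 in the whole table. Tmsb4x had 159785, 202135 and 216077 normalized reads (lowest, median, highest) in LOY libraries, against 193617, 208482 and 258980 in Control libraries. LOY 15 was the lowest, and 2 LOY libraries lay below every Control library. For Tmsb4x this gave a log2 fold change of -0.16 ± 0.09 (SE, 95% interval -0.35 to 0.02, limma adjusted p = 0.81), and -0.05 without Control 1, 2 and 12. Its relative Tmsb10 was the lowest of the 42, with 124 ± 33.3 normalized reads in LOY libraries and 127 ± 31.5 in Control libraries (SD, n = 6 each). The ratio of the 2 thymosins was 1636 ± 313 in LOY libraries and 1831 ± 583 in Control libraries. Pfn1 (profilin-1, which feeds actin to growing ends) and Cap1 (which recycles actin after disassembly) had log2 fold changes of -0.16 and -0.08. Without Control 1, 2 and 12 the estimate was 0.02 for Pfn1, -0.02 for Cap1 and -0.0027 for Tmsb10, so that of these 6 genes Actb and Pfn1 then lay above 0.

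Among the 3 proteins that take filaments apart, none passed the adjusted threshold and 1 estimate was above 0. The log2 fold changes were -0.12 for Cfl1 (cofilin-1, which severs filaments), -0.01 for Gsn (gelsolin, which severs and caps them when calcium rises) and 0.05 for Coro1a (coronin-1A, the blood-cell partner of the Arp2/3 complex). All 3 were above 0 without Control 1, 2 and 12, at 0.08 for Cfl1, 0.05 for Gsn and 0.10 for Coro1a. The estimate for Coro1a was one of the tightest, with a 95% interval from -0.10 to 0.19 at 59611 ± 6119.6 normalized reads in LOY libraries and 57524 ± 3280.1 in Control libraries (SD, n = 6 each).

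Capping proteins gave the lowest fold change of the 42 genes and also some of the flattest. Capg, a gelsolin relative that caps without severing and is abundant in macrophages, lies on chromosome 6 (72544391 to 72562983, plus strand, GRCm38). It had 1138, 1389 and 1915 normalized reads (lowest, median, highest) in LOY libraries, against 1473, 1978 and 3884 in Control libraries. Control 1, 2 and 12 held 2139, 3884 and 3364, and the other 3 Control libraries held 1473 to 1816, within the LOY range. This gave a log2 fold change of -0.64 ± 0.25 (SE, 95% interval -1.17 to -0.11), with a limma unadjusted p of 0.022 and an adjusted p of 0.785. Without Control 1, 2 and 12 it was -0.19 (limma adjusted p = 0.958), so most of the estimate rests on those libraries. The authors' deposited table gave Capg a log2 fold change of -0.72 with an adjusted p of 0.372.

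The 3 genes of the other capping protein, a dimer of an alpha and a beta chain, had log2 fold changes of 0.08 for Capza1, -0.11 for Capza2 and -0.0007 for Capzb, and without Control 1, 2 and 12 they were 0.05 for Capza1, 0.05 for Capza2 and 0.11 for Capzb. Capza1 varied less across LOY libraries than any other of the 42 genes, with a coefficient of variation (SD over mean) of 3.44%, against 17.5% across Control libraries. Capzb averaged 14722 normalized reads in both groups, with an SD of 1698 in LOY libraries and 1616 in Control libraries (n = 6 each).

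The Arp2/3 complex, which grows branches from existing filaments, showed no difference beyond the spread between libraries. Its 7 listed genes summed to 8543 ± 396 per 1000000 normalized reads in LOY libraries and 8470 ± 330 in Control libraries (SD, n = 6 each). Of the 7 estimates 2 were above 0 (Actr3 and Arpc2), with a median log2 fold change of -0.03. The estimates without Control 1, 2 and 12 were 0.14 for Actr3, 0.12 for Arpc2, 0.17 for Arpc3, 0.08 for Arpc4, 0.08 for Arpc5 and -0.02 for Arpc1b. Arpc1b had the smallest SE of the 42 genes, 0.051, and its interval ran from -0.15 to 0.08. Actr2, one of the 2 actin-like subunits on which the new branch is built, had 3924, 4211 and 5615 normalized reads (lowest, median, highest) in LOY libraries, against 4104, 5023 and 7471 in Control libraries. Control 2 and 12 held 7109.8 and 7471, and every other library was at or below 5615. Its log2 fold change was -0.30 ± 0.15 (SE, 95% interval -0.63 to 0.04, limma adjusted p = 0.81), and -0.04 without Control 1, 2 and 12.

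The subunits of the complex meet in equal numbers, but their RNAs did not stand at equal levels. Per length (normalized reads per kb of exon), Arpc2 made up 27.2% ± 1.09 of the summed subunit RNA in LOY libraries and 26.0% ± 1.56 in Control libraries (SD, n = 6 each). Arpc1b made up 24.6% ± 1.16 in LOY libraries and 25.0% ± 1.68 in Control libraries. The share of Arpc5 was 20.9% ± 0.47 in LOY libraries and 21.5% ± 1.45 in Control libraries. Actr2 was the scarcest on this scale, at 1.99% ± 0.26 in LOY libraries and 2.43% ± 0.46 in Control libraries. Exon lengths came from all annotated transcripts joined, so a gene with a long untranslated end that neutrophils do not use looks lower than it is. The joined exons of Arpc1b came to 5115 bases, against 1394 in its longest-coding transcript. Those of Arpc2 came to 2033, against 1439. The order of Arpc1b and Arpc2 thus depends on the length used.

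The factors that switch the Arp2/3 complex on had estimates at or below 0 in 4 of 4 genes, none past the adjusted threshold. The log2 fold changes were -0.23 for Was (the Wiskott-Aldrich syndrome protein), -0.0005 for its stabilizer Wipf1, -0.09 for Wasf2 (of the WAVE complex, which acts below Rac) and -0.13 for Hcls1 (a cortactin relative of blood cells that steadies branches). The signs of all 4 turned without Control 1, 2 and 12, where they were 0.20 for Was, 0.07 for Wipf1, 0.18 for Wasf2 and 0.07 for Hcls1. Was had the highest coefficient of variation of the 42 genes across Control libraries, 43.5%, from 627 to 1790.3 normalized reads, against 596 to 1049 in LOY libraries.

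Non-muscle myosin II, the motor of the cell rear, had estimates below 0 in 4 of 4 genes, none past the adjusted threshold. The log2 fold changes were -0.10 for the heavy chain Myh9, -0.05 for the essential light chain Myl6, -0.16 for Myl12a and -0.10 for Myl12b. These 4 values without Control 1, 2 and 12 were 0.0096 for Myh9, -0.02 for Myl6, -0.07 for Myl12a and -0.01 for Myl12b, so the lower estimates rest largely on those libraries. Myl12b averaged 21912 ± 1107 normalized reads in LOY libraries and 23580.3 ± 1844 in Control libraries (SD, n = 6 each), with an interval of -0.24 to 0.03. The ratio of Myl12b to Myl12a was 3.87 ± 0.39 in LOY libraries and 3.70 ± 0.16 in Control libraries. In GENCODE vM21 a further gene on chromosome 17 with the symbol Myl12b overlaps this pair, and 33.0% of the Myl12b windows and 29.2% of the Myl12a windows fall in it, so the split of reads between the pair is uncertain.

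The bundling and crosslinking proteins had estimates near 0 or above. Lcp1 encodes L-plastin, the filament bundler of white blood cells, and was the second highest of the 42 genes in normalized reads. It averaged 113657 ± 7679 in LOY libraries and 110558 ± 18962 in Control libraries (SD, n = 6 each), a log2 fold change of 0.06 (95% interval -0.18 to 0.30), and of -0.0036 without Control 1, 2 and 12. Control 2 was the lowest library, at 74834. Flna, which encodes filamin A and crosslinks filaments into a gel, had a log2 fold change of 0.16 (95% interval -0.21 to 0.53), and of 0.15 without Control 1, 2 and 12.

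**Figure D4:**
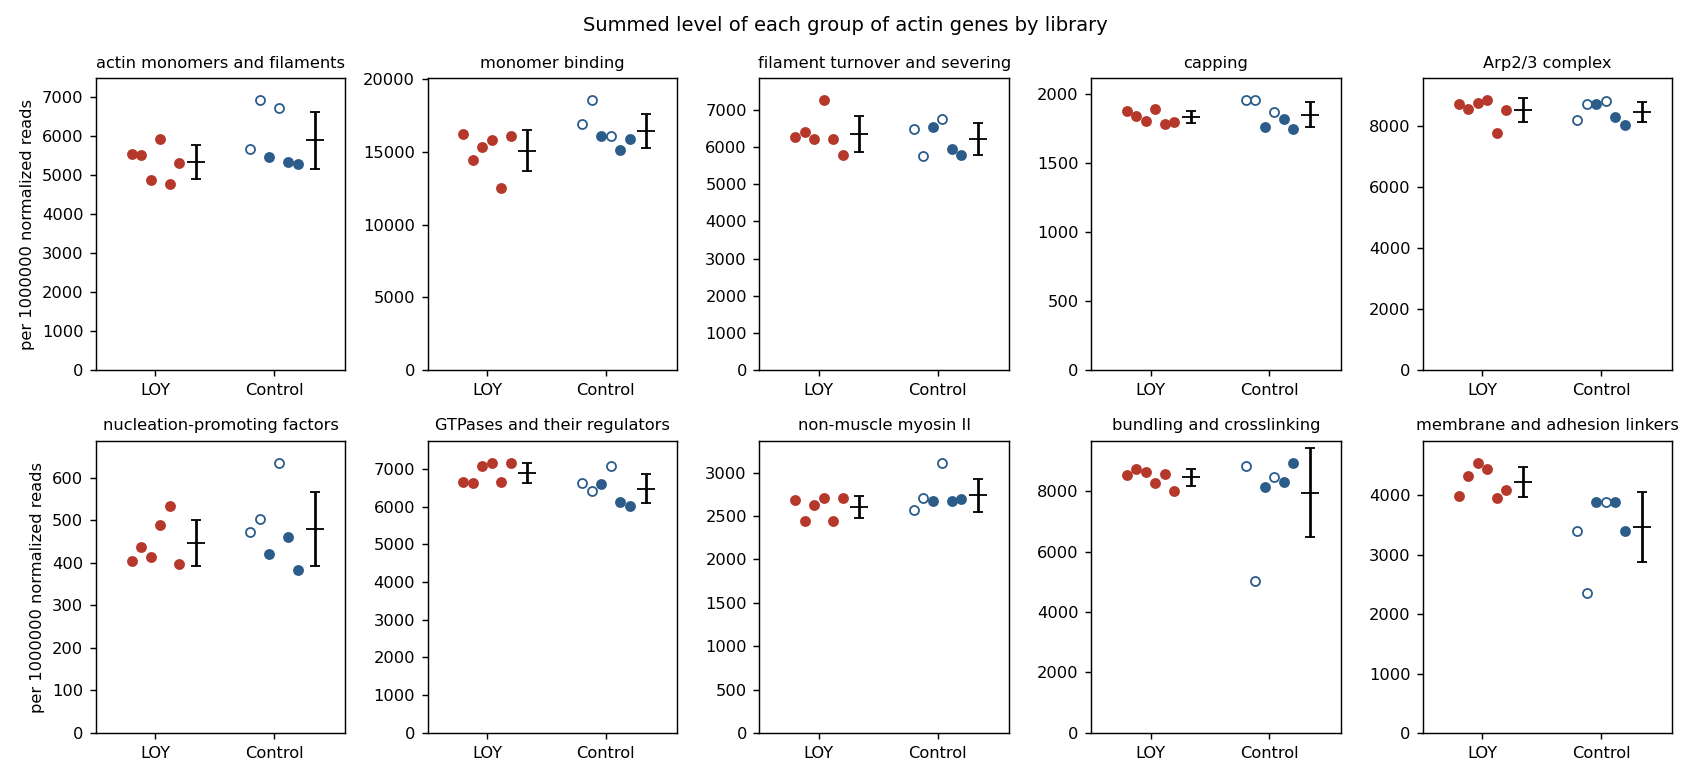
Summed level of the genes of each role, per 1000000 normalized reads, in each library, LOY on the left and Control on the right. Points are libraries, open points are Control 1, 2 and 12, and bars are the mean ± SD (n = 6). On this scale the linkers in the last panel do not overlap between the groups, and the other 9 sums do.

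As a sum, the 42 genes differed between the groups by less than the spread between libraries. They made up 5.97% ± 0.25 of all normalized reads in LOY libraries and 6.00% ± 0.21 in Control libraries (SD, n = 6 each). The range was 5.52% to 6.28% in LOY libraries and 5.79% to 6.35% in Control libraries, and LOY 15 was the lowest library. This set holds 10 of the 100 highest genes of the table and 31 of the 500 highest. Per length, Tmsb4x led with 142225 ± 15476 normalized reads per kb in LOY libraries and 159402 ± 18018 in Control libraries. Coro1a, Arhgdib, Pfn1, Actb and Actg1 followed between 16227 and 21727 per kb in LOY libraries and between 18378 and 23717 per kb in Control libraries. Among these, Actb and Actg1 differed by less than their SDs in both groups. At the other end stood Vcl at 86.2 ± 17.2 per kb in LOY libraries and 45.2 ± 15.5 in Control libraries, beside Tmsb10 at 97.5 ± 26.1 and 99.5 ± 24.7. These orders rest on the joined exons of all annotated transcripts. For Pfn1 these came to 2405 bases, against 861 in its longest-coding transcript. For Coro1a they came to 2783, against 1747. The order of genes below Tmsb4x may thus change with the length used.

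**Figure D5:**
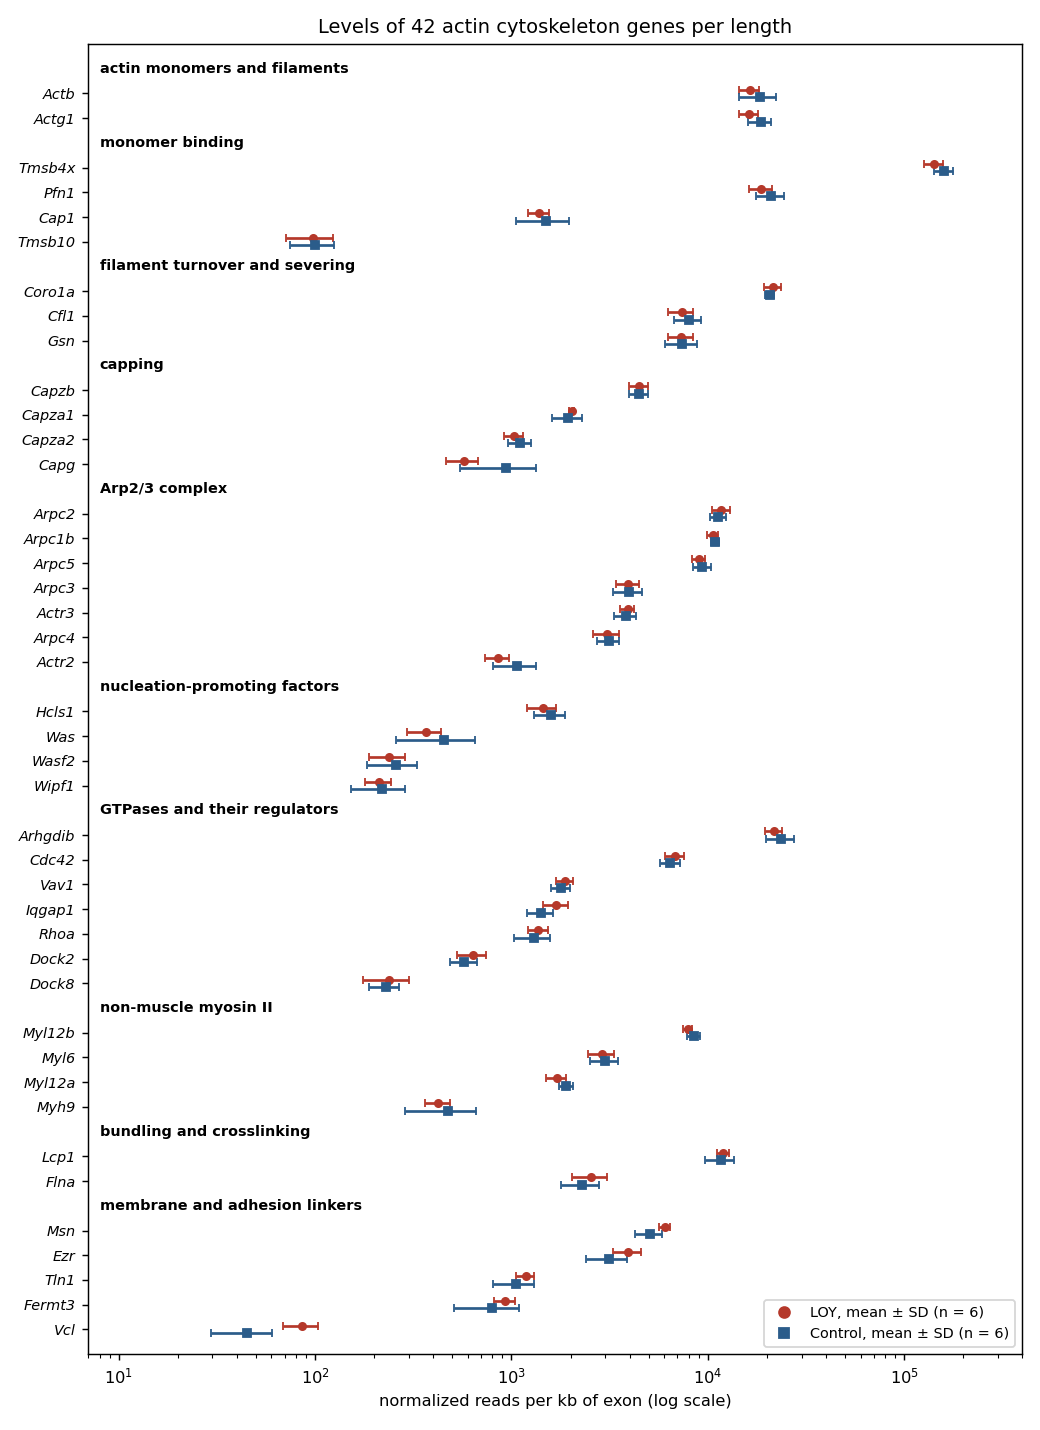
Level of each of the 42 genes per length (normalized reads per kb of exon, log scale), ordered within each role by the LOY mean. Exons of all annotated transcripts were joined. Circles are LOY and squares Control, each the mean ± SD of 6 libraries. Tmsb4x stands highest, at 142225 in LOY and 159402 in Control, and Vcl and Tmsb10 stand lowest.

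The genes varied less across LOY libraries than across Control libraries, and the Control figure depended on Control 1, 2 and 12. The median coefficient of variation of the 42 genes was 12.0% in LOY libraries and 16.7% in Control libraries, and 9.06% in Control libraries without those 3. The same medians over the 542 tested genes with a mean of 5000 or more were 13.1% in LOY libraries, 15.7% in Control libraries and 9.60% without those 3. Control 2 was the highest or lowest of the 12 libraries for 45.2% of the 42 genes (highest for 8 and lowest for 11), and for 42.2% of 3541 other genes with a mean of 500 or more. LOY 10 was the highest for 9 genes and had a median log2 deviation of 0.21 over the 42 genes, the largest of any library.

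Across the 12 libraries some genes kept step. The closest pairs were Tmsb4x with Arhgdib (Spearman correlation 0.93), Actg1 with Arpc5 (0.92) and Iqgap1 with Flna (0.88), and the median over all 861 pairs was 0.18. The most opposed were Capza1 with Wipf1 (-0.83) and Capg with Ezr (-0.73). Within roles the median was 0.75 for the single actin pair, 0.58 for the factors that switch on the Arp2/3 complex, 0.48 for filament turnover, 0.46 for the linkers, 0.35 for the Arp2/3 genes and 0.32 for monomer binding. It was 0.13 for the single bundling pair, 0 for capping, -0.02 for myosin II and -0.08 for the GTPases and their regulators. These values describe 12 libraries that share depth and the split of Control 1, 2 and 12.

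A wider list of 111 other actin genes, of which 96 were in the table and 90 were tested, was tested in the same fit. Of these 0 passed the adjusted limma threshold, as with edgeR and DESeq2. At an unadjusted p under 0.05, limma placed 4 of 90 higher and 2 lower in LOY, where 4.4% and 1.63% of all tested genes were. With edgeR 2 of 90 were higher and 2 lower, where 1.45% and 1.5% of all tested genes were. DESeq2, which tested 96 of the list, placed 3 higher and 2 lower, where 3.15% and 2.4% of all tested genes were. With limma the median log2 fold change was -0.0086, with 44 estimates above 0 and 46 below. The genes with the smallest p among the higher ones were Rock2, Lasp1 and Tagln2, and among the lower ones Cyfip1, Arhgef2 and Rhob. Cyfip1, a subunit of the WAVE complex beside Wasf2, averaged 806 ± 165 normalized reads in LOY libraries and 1452 ± 488 in Control libraries (SD, n = 6 each). Its log2 fold change was -0.81 ± 0.23 (SE, limma adjusted p = 0.554), and -0.42 without Control 1, 2 and 12. Rock2, a kinase that acts below RhoA on myosin II, averaged 322 ± 49.6 normalized reads in LOY libraries and 156 ± 164 in Control libraries. Its log2 fold change was 2.57 with limma, 1.07 with edgeR (unadjusted p = 0.253) and 0.11 with limma without Control 1, 2 and 12. The limma value is a mean of logs and exceeds the ratio of the 2 means, since some Control libraries are low. Lasp1 and Tagln2, which bind filaments, had log2 fold changes of 0.26 and 0.59, and Arhgef2 and Rhob, an activator and a relative of RhoA, had -0.37 and -0.66. These values without Control 1, 2 and 12 were 0.29 for Lasp1, 0.32 for Tagln2, -0.19 for Arhgef2 and -0.75 for Rhob.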

How the data were processed

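RNA of sorted blood neutrophils was amplified with SMART-Seq v4 and made into Nextera XT libraries, per the labels' protocols; this kit does not mark strand. Per the submitters' processing notes, the builds were GRCm38 and mm10 and the tools featureCounts with Subread 1.5.2, STAR 2.5.2b, Trimmomatic 0.36 and bcl2fastq 2.17. A single table was deposited of normalized signal per gene and library, beside log2 fold changes and p-values of a comparison by the authors, per the file headers. In every library 100% of the deposited signal values were whole multiples of 1 step (tolerance 0.02 reads), so reads could be recovered.

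From this signal, called normalized reads, limma 3.58.1 in R 4.3.3 (trended, robust empirical Bayes) was fitted on log2(value + 1) to 9742 genes (those reaching 10 in 6 or more libraries), with no covariate and Benjamini-Hochberg adjustment at 0.05. Fold changes are on that scale, which understates changes of low genes but can exceed the ratio of group means where single libraries are low, as for Rock2. Alternative fits used DESeq2 1.42.0 and the quasi-likelihood test of edgeR 4.0.16 on recovered read counts, quantile normalization, no filter, pseudocounts of 0.5 and 5, Control 1, 2 and 12 left out together, and each library left out in turn. The limma, edgeR and DESeq2 steps were tested on simulated counts. Recovered reads were 13743581 to 19616066 per library; the spread between libraries, not counting error, sets the precision for these genes. Levels per length used joined GENCODE vM21 exons.

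The members, roles and gene lists were chosen with earlier results of these data known. All 42 members are named; of the wider actin list, the 3 genes with the smallest p in each direction, and the most abundant marker of each marker list. The 3 genes per direction were taken because none passed the adjusted threshold. Role sums were added after seeing the data.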

Additional observations from a re-analysis of the deposited data

Results flagged for a closer look

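Each of the 42 genes was examined in each group, 84 groups of 6 libraries in all, for a highest or lowest library whose gap to the next library, divided by the range of the group, was above Dixon's 95% critical value. Chance alone marks about 1 in 20 such groups, and 9 were marked here.

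LOY 10 was far above the other LOY libraries for 3 genes. Its gap was 0.639 of the range for Actb (52900.2 normalized reads), 0.645 for Arpc3 (13652 normalized reads) and 0.691 for Myl6 (11842 normalized reads). Control 12 was far above the other Control libraries for Cap1, with a gap of 0.646 at 8266 normalized reads, and for Iqgap1, with a gap of 0.718 at 30056 normalized reads. Control 18 was far below the others for Arpc1b, with a gap of 0.714 at 50661 normalized reads, and for Arpc4, with a gap of 0.646 at 5537 normalized reads. Control 2 was far below the others for Lcp1, with a gap of 0.639 at 74834 normalized reads, and for Ezr, with a gap of 0.67 at 5620.0 normalized reads.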

How the results depend on the processing

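Across 19 alternatives, 0 of the 42 genes and 0 of the wider actin list passed the adjusted threshold, and the smallest adjusted p of any of the 42 was 0.125 (Vcl, DESeq2). The log2 fold change ran from 0.71 to 1.12 for Vcl, 0.20 to 0.32 for Msn, 0.21 to 0.34 for Iqgap1 and -0.76 to -0.19 for Capg. Of 798 values of single genes, 65 turned sign, in 21 genes. The median log2 fold change over all tested genes was 0.14 in the reported fit and 0.03 after quantile normalization, and medians of the 42 genes were -0.02 and 0.0040 there.

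Without Control 1, 2 and 12, estimates that turned were Actb 0.067, Pfn1 0.0195, Cfl1 0.0766, Gsn 0.0464, Capza2 0.0544, Capzb 0.11, Arpc3 0.168, Arpc4 0.083, Arpc5 0.0776, Was 0.198, Wipf1 0.0672, Wasf2 0.176, Hcls1 0.071, Arhgdib 0.0704, Dock8 -0.0032, Myh9 0.0096 and Lcp1 -0.00365. With edgeR they were Gsn 0.00154, Capzb 0.0169 and Arpc3 0.00593, and with DESeq2 Capzb 5.5e-05. With quantile normalization they were Gsn 0.0136, Capzb 0.0206, Arpc3 0.0125, Arpc4 0.00444 and Wipf1 0.059. The cause was not tested. With single libraries left out, the ranges of estimates that turned were -0.146 to 0.0896 for Tmsb10, -0.19 to 0.0586 for Cap1, -0.0872 to 0.0702 for Gsn, -0.00116 to 0.0813 for Coro1a, -0.0544 to 0.0492 for Capzb, -0.0728 to 0.066 for Arpc3, -0.108 to 0.0224 for Arpc4, -0.127 to 0.0935 for Wipf1, -0.186 to 0.00311 for Wasf2, -0.0563 to 0.146 for Dock8, -0.214 to 0.0747 for Myh9, -0.124 to 0.0251 for Myl6 and -0.0506 to 0.111 for Lcp1.

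The difference in the sum of the 42 genes, LOY minus Control per 1000000 normalized reads, was -224 and ran from -833 to 682 with single libraries left out, 963 without Control 1, 2 and 12, and -1050 after TMM scaling, so its sign is not set by these data. The difference in the linker sum stayed between 499 and 843. The sums over roles and their alternatives were chosen after seeing the data. No paired analysis was possible because the groups share no replicate number.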
